A study of Papio anubis with 60 samples.

Results

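Wide active H3K4me3 domains were stretches of the baboon genome in which the promoter mark H3K4me3 ran over 5 kb or more, together with the activity mark H3K27ac and without the repressive marks H3K27me3 and H3K9me3. The domains were selected by peak calls of all 4 marks. H3K4me3 peaks of the iPSC list and of the ESC list on chromosomes 1 to 20 were joined where they lay within 1 kb of each other, and domains of 5 kb or more were kept. Members had to share at least 1 bp with an H3K27ac peak of each cell type and with no H3K27me3 or H3K9me3 peak of either. There were 653 members, out of 4904 domains of 5 kb or more and 232590 joined domains of any width. Their width, the presence of H3K27ac and the absence of repressive peaks follow from the choice and are given as a description.

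The series mapped histone marks by ChIP-seq in pluripotent stem cells of Papio anubis, the olive baboon. The iPSC group held induced pluripotent stem cells, made by reprogramming somatic cells, of the lines 160-2 and M14939#3, and the ESC group held embryonic stem cells of the lines B4 and B15. No treatment or genetic change of the lines is given in the labels, and all were kept on feeder cells. The labels list 60 libraries of 50000 cells each, cut with micrococcal nuclease, in 10 groups, each given by the cell type and the antibody or input. Each group held 3 replicates of each of its 2 lines, and 12 libraries were inputs. The values used here came from 8 peak lists, each for 1 mark in 1 cell type, so a difference between iPSC and ESC is a difference between 2 lists and has no replicate check. Cell type and cell line cannot be told apart, since each line belongs to 1 cell type, and whether feeder chromatin entered the libraries was not tested. In the bulk samples, fewer cells bearing a mark and less of the mark per cell cannot be told apart either. No gene is named below, because no annotation of the lists' own genome build was used, and the labelled cell types were therefore not checked against marker genes.

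H3K4me3 is laid down around active and poised start sites, usually over a few nucleosomes. In many cell types a small set of promoters carries it over much longer stretches, and in mammals such broad domains have been tied to genes of cell identity and to steady, high transcription. H3K27ac is added by the acetyltransferases CBP and p300 at active promoters and enhancers, and it excludes H3K27me3, the mark of Polycomb repressive complex 2, on the same lysine. In pluripotent cells many of the broadest H3K4me3 domains are instead bivalent, that is, they also bear H3K27me3 at silent developmental genes. H3K9me3 marks heterochromatin and silenced repeats.

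Wide domains free of repressive peaks were a minority. Of the 4904 wide domains, 696 had no H3K27me3 or H3K9me3 peak in either cell type, and 653 of these had H3K27ac in both and were members (13.3% of the wide domains, 95% Wilson interval 12.4 to 14.3). Only 43 of the 696 lacked shared H3K27ac. The most similar class was that of the 2571 wide domains that bore H3K27ac in both cell types and a repressive mark in at least 1. Of these, 1389 bore H3K27me3 alone, 167 H3K9me3 alone and 1015 both. A further class used for comparison was that of 7746 narrow active domains, 2 to 5 kb wide, with the same marks as the members. The presence of a repressive peak in this sense is a low bar, since a single short peak in 1 of 4 lists removed a domain.

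The members were short for wide domains. Their median width was 5.905 kb (quartiles 5358 and 6928 bp), against 6.488 kb (5626 and 8242.5 bp) in the wide acetylated domains with a repressive mark, and the widest member spanned 18.35 kb. Members made up 26.7% of the acetylated domains of 5 to 6 kb (347 of 1298, Wilson interval 24.4 to 29.2), 20.7% of those of 6 to 8 kb (238 of 1150, 18.5 to 23.1), 10.8% of those of 8 to 10 kb (45 of 415, 8.20 to 14.2) and 6.37% of those of 10 kb or more (23 of 361, 4.28 to 9.38). The share without a repressive mark thus became smaller with each step in width. The part of length alone in this was not tested. At the width limit, the 3 narrowest members spanned 5001, 5002 and 5003 bp and the 3 widest domains with the same marks below it 4996 bp each. The narrowest member, at 58062159 to 58067159 of chromosome 2, had H3K4me3 over 57.99% of its length in iPSC and 35.7% in ESC. The next, at 93545867 to 93550868 of chromosome 13, was marked over 30.5% in iPSC and hardly at all, over 2.90%, in ESC. The one at 127230079 to 127235081 of chromosome 12 was marked over 38.8% in iPSC and 30.1% in ESC. The 3 just outside the limit had 54.4%, 61.8% and 37.8% in iPSC and 44.4%, 56.8% and 26.98% in ESC.

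**Figure D1:**
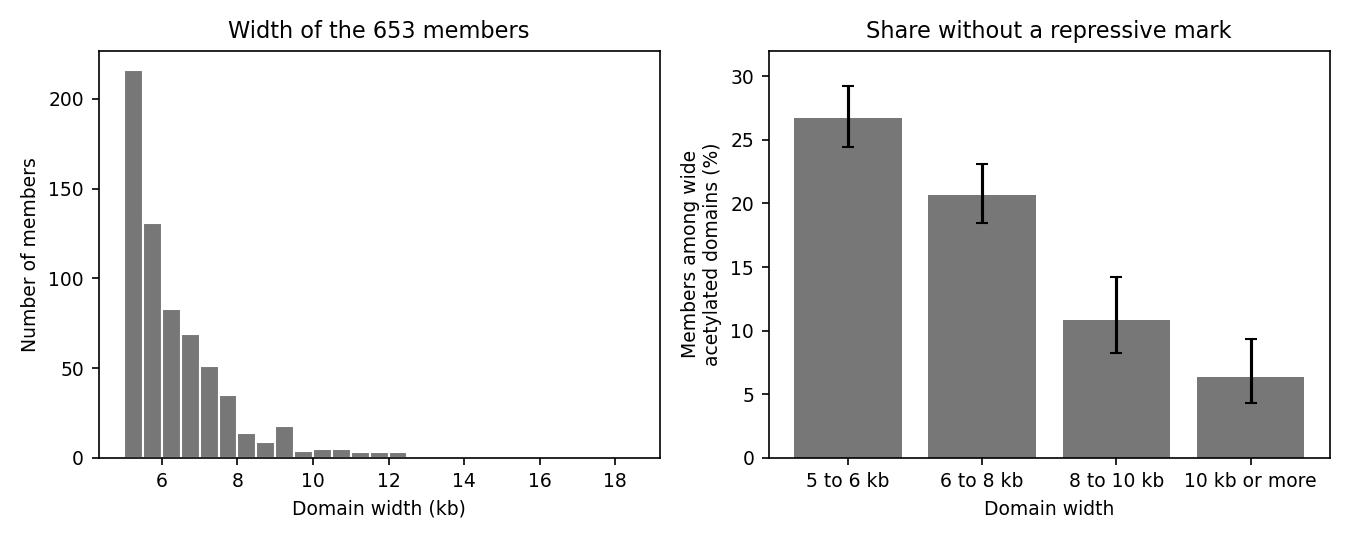
Width of the members in bins of 0.5 kb (left, number of members) and the percent of wide acetylated domains that were members in 4 width classes (right, bars with 95% Wilson intervals). Most members lie near the 5 kb limit, and the share of members is 26.7% at 5 to 6 kb and 6.37% at 10 kb or more.

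Within a member, H3K4me3 formed a chain of peaks and not a single block. A member held a median of 6 H3K4me3 peaks in iPSC (range 2 to 17) and 6 in ESC (1 to 18). The widest single peak had a median of 1359 bp in iPSC and 1251 bp in ESC, which is 21.7% and 19.96% of the length of the member. In the wide acetylated domains with a repressive mark these medians were 1833 and 1917 bp, and the median number of peaks was likewise 6 in each cell type. A single peak of 5 kb or more was present in 0 members in iPSC and 1 in ESC (0.153%), against 92 (3.58%) and 101 (3.93%) of the domains with a repressive mark. The largest gap between H3K4me3 peaks of a member had a median of 849 bp in iPSC and 931 bp in ESC, against 809 and 860 bp in the domains with a repressive mark. Like those domains, the members were mostly runs of neighbouring peaks rather than unbroken plateaus.

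The strongest H3K4me3 peak of a member was strong within its list but weaker than in the domains with a repressive mark. The fold enrichment over background, the authors' value for a single peak, had a median of 6.96 for the strongest peak of each member in iPSC and 7.05 in ESC, with a range of 3.32 to 18.5 and 2.81 to 18.0. These medians stood at percentile 91.7 of the iPSC list and 91.5 of the ESC list. In the wide acetylated domains with a repressive mark the medians were 8.32 and 9.32, at percentile 95.5 of the iPSC list and 95.4 of the ESC list. The narrow active domains had 5.59 and 5.32, at percentiles 84.5 and 83.8. Members thus lay between the other classes by this measure in each list. The strongest H3K27ac peak had a median fold of 4.02 in iPSC and 4.69 in ESC in members, close to the 4.06 and 4.72 of the domains with a repressive mark, and above the 3.49 and 4.03 of the narrow active domains. The strongest peak was picked from more peaks in members than in narrow active domains. The narrow ones had a median of 3 H3K4me3 and 2 H3K27ac peaks in each cell type, against 6 H3K4me3 and 4 to 5 H3K27ac peaks. The part of peak number and width in these values was not tested.

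The 10 widest members show how different such domains were from each other. The widest, of 18.35 kb, was found on chromosome 16 (47215356 to 47233705) and was under H3K4me3 over 67.97% in iPSC and 66.8% in ESC. Its H3K27ac covered 6.77% in iPSC, in 3 peaks, and 22.5% in ESC, in 11 peaks, and its nearest repressive peak was 9.94 kb away. The next, at 1966658 to 1983552 of chromosome 10 (16.9 kb), was acetylated along much of its length, 47.5% in iPSC and 62.2% in ESC. It thus had about as much H3K4me3 as the widest member, 69.6% in iPSC and 63.7% in ESC, but several times as much H3K27ac in iPSC. A domain at 29341730 to 29357945 of chromosome 4 (16.2 kb) had the highest H3K4me3 coverage of the 10, 74.7% in iPSC and 69.2% in ESC, with H3K27ac over 15.8% and 23.0%. Another at 38699827 to 38715681 of the same chromosome (15.9 kb) had H3K4me3 over 60.1% and 55.7% and H3K27ac over 22.5% and 33.2%. Domains this wide were nonetheless not uniform between the cell types. The 11.9 kb member at 43678409 to 43690323 of chromosome 3 spanned 11.9 kb by iPSC peaks and 8.87 kb by ESC peaks, and its strongest H3K4me3 peak had a fold of 8.90 in iPSC and 16.6 in ESC. The remaining 5 were 11.8 to 12.5 kb wide and lay on chromosomes 14, 13, 1, 1 and 4. H3K4me3 covered more in iPSC in 8 of the 10, and H3K27ac covered more in iPSC in 0 of the 10. Over all 653 members these shares were 69.8% and 11.9%, so the counts were near those of members in general. H3K27ac covered at least 20% in both cell types in 5 of the 10.

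**Figure D2:**
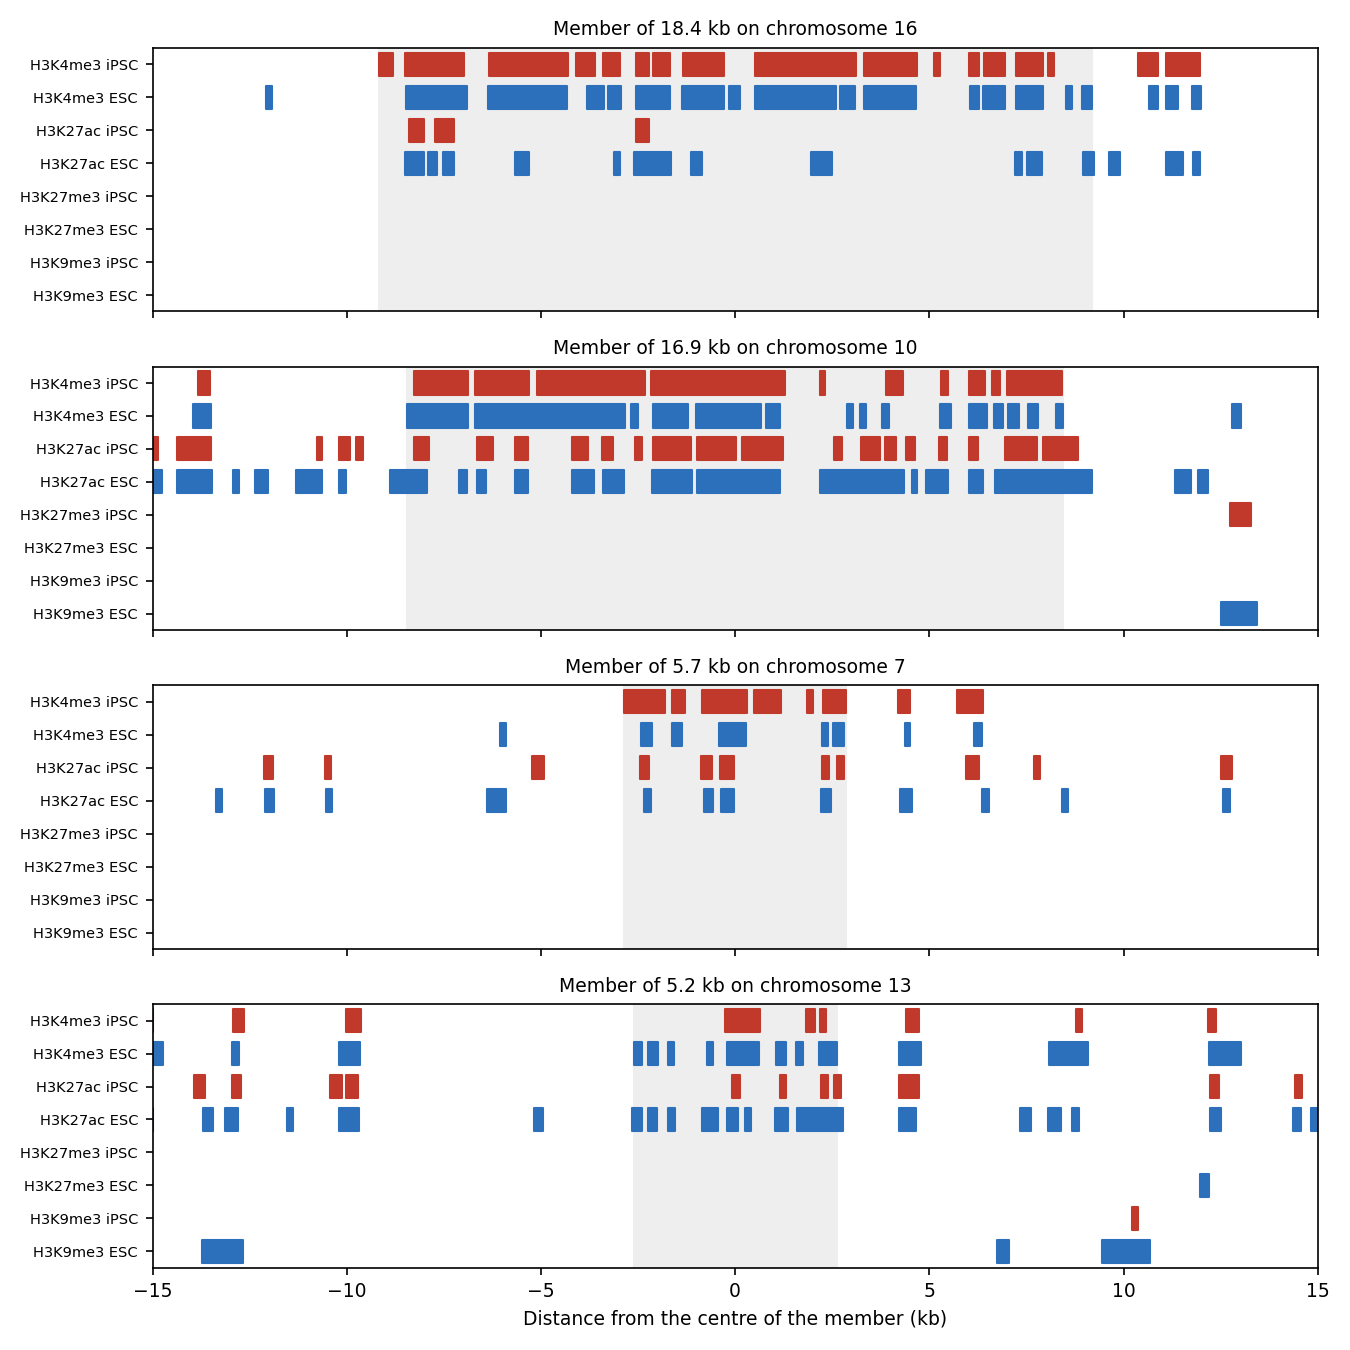
Peaks of the 4 marks in iPSC (red) and ESC (blue) within 15 kb of the centre of 4 members, with the member shaded in grey and the horizontal axis in kb. From above, these are the 2 widest members, the member with the largest H3K4me3 surplus in iPSC and that with the largest H3K27ac surplus in ESC, and each is a chain of H3K4me3 peaks with no repressive peak inside it.

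H3K27ac covered a smaller part of the members than H3K4me3, and most of it lay on H3K4me3. The median member had 4 H3K27ac peaks in iPSC and 5 in ESC. They covered 18.6% of its length in iPSC (quartiles 10.8 and 28.5) and 27.6% in ESC (18.6 and 39.7), with a range of 2.03 to 74.1% in iPSC and 2.27 to 81.3% in ESC. H3K4me3 covered 58.7% in iPSC (49.3 and 68.1) and 53.0% in ESC (41.1 and 65.7). Of the base pairs under H3K27ac in members, 89.6% were also under H3K4me3 in iPSC, where H3K4me3 covered 59.0% of the length, and 82.4% in ESC, where it covered 53.4%. A single H3K27ac peak was all that 69 members had in iPSC and 23 in ESC, and 12 had a single one in each. At the other end, 28 members were acetylated over at least 50% of their length in both cell types.

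The most fully acetylated members were of moderate width. Ranked by the lower of the iPSC and ESC values, the first was a domain of 6.16 kb on chromosome 3 (144813739 to 144819901), with H3K27ac over 74.1% in iPSC and 81.3% in ESC. There H3K27ac covered more than H3K4me3 did, which had 60.3% in iPSC and 48.1% in ESC. The next lay at 39240294 to 39247472 of chromosome 7 (7.18 kb), with 73.4% in iPSC and 75.8% in ESC and with H3K4me3 over 84.4% and 84.9%. The others, on chromosomes 13, 10 and 7, were 5.93 to 6.82 kb wide and had H3K27ac over 63.1%, 61.8% and 58.4% in iPSC and 76.1%, 73.1% and 66.4% in ESC. Across the 653 members, the H3K27ac coverage of a domain in iPSC went with that in ESC (Pearson's r 0.832, Spearman's rho 0.791). H3K27ac coverage went little with H3K4me3 coverage of the same cell type (r 0.133 and rho 0.123 in iPSC, r 0.134 and rho 0.112 in ESC) or with width (r 0.0326, rho 0.0399 for ESC H3K27ac). These correlations run over regions that share the same lists, and are given as a description.

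The members differed from the wide acetylated domains with a repressive mark in both active marks, in opposite directions. H3K27ac covered more of the members, 18.6% against 12.5% in iPSC and 27.6% against 19.6% in ESC, a difference of medians of 6.10 and 8.02 percentage points. The ESC difference was 4.41 points where H3K27ac had to cover at least 10% in each cell type, and 4.83 with peaks joined within 2 kb. The medians of members were higher in 19 of 20 autosomes in iPSC and in 20 of 20 in ESC. H3K4me3 covered less of the members, 58.7% against 67.0% in iPSC and 53.0% against 64.1% in ESC, and was lower in 20 of 20 autosomes in each cell type. Both differences held within each width class. At 5 to 6 kb, H3K27ac covered 17.6% of members and 13.8% of the others in iPSC, and 26.7% and 20.9% in ESC. At 10 kb or more it covered 18.5% and 9.64% in iPSC, and 25.9% and 15.2% in ESC. H3K4me3 at 5 to 6 kb covered 59.3% and 65.4% in iPSC, and 52.2% and 63.0% in ESC. Against the narrow active domains the members stood close, with narrow medians of 57.0% H3K4me3 and 18.9% H3K27ac in iPSC and 50.5% and 28.5% in ESC. Regions of 1 list share its libraries, so no test over regions was made.

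Between the cell types, members, like the other classes, had more H3K4me3 in iPSC and more H3K27ac in ESC. The difference in H3K4me3 coverage, iPSC minus ESC, had a median of 5.04 percentage points (95% order-statistic interval 4.21 to 5.83). With peaks joined within 0.5 kb, which left 178 members, it was 2.86 points (1.503 to 4.73). With joining within 1 kb, it was positive in 456 of 653 members (69.8%), and its median was positive in each of 20 autosomes, from 1.46 to 9.73 points. It was positive in 61.7% of the wide acetylated domains with a repressive mark, 64.5% of the narrow active domains and 63.4% of all wide domains. Summed over members, iPSC peaks covered 1.104 times as many base pairs as ESC peaks. In the wide acetylated domains with a repressive mark the median difference was 2.33 points and in all wide domains 2.82, while the narrow active domains had 5.50. For H3K27ac the difference had a median of -7.69 points (interval -8.61 to -7.09). It was negative in 574 of 653 members (87.9%) and in median on 20 of 20 autosomes. It was also negative in 83.4% of the wide acetylated domains with a repressive mark and 79.99% of the narrow active domains. Of all wide domains it was negative in 66.5%, with equal coverage in 1072 of 4904. In each of these classes, too, its median was negative on 20 of 20 autosomes. The class medians were -4.95 points in the domains with a repressive mark and -7.81 in the narrow active ones. As a ratio of covered base pairs, iPSC to ESC, the members' median of 0.699 stood near 0.732 and 0.727 in those classes.

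The H3K27ac difference was smaller with lists of equal length. The deposited list of H3K27ac had 221803 peaks in iPSC and 387478 in ESC. When the ESC list was cut by −log10 q to 221803 peaks, ESC H3K27ac covered 21.8% of the median member, the difference was -2.42 points (interval -3.20 to -1.71) and 423 of 653 members had more in ESC. The H3K4me3 lists were of similar length, 330423 peaks in iPSC and 336658 in ESC, and with equal length the H3K4me3 difference was 5.14 points. By the lists as deposited, in 390 members H3K4me3 covered more in iPSC and H3K27ac more in ESC, 184 had more of both marks in ESC, 65 had more of both in iPSC, and 13 had more H3K4me3 in ESC and more H3K27ac in iPSC. With the H3K27ac lists at equal length these counts were 276, 147, 180 and 50, in the same order. All of these counts, and the 423 at equal length, were made in members only and have no share of other domains beside them. The depth of the libraries is unknown, and its part in these differences was not tested.

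**Figure D3:**
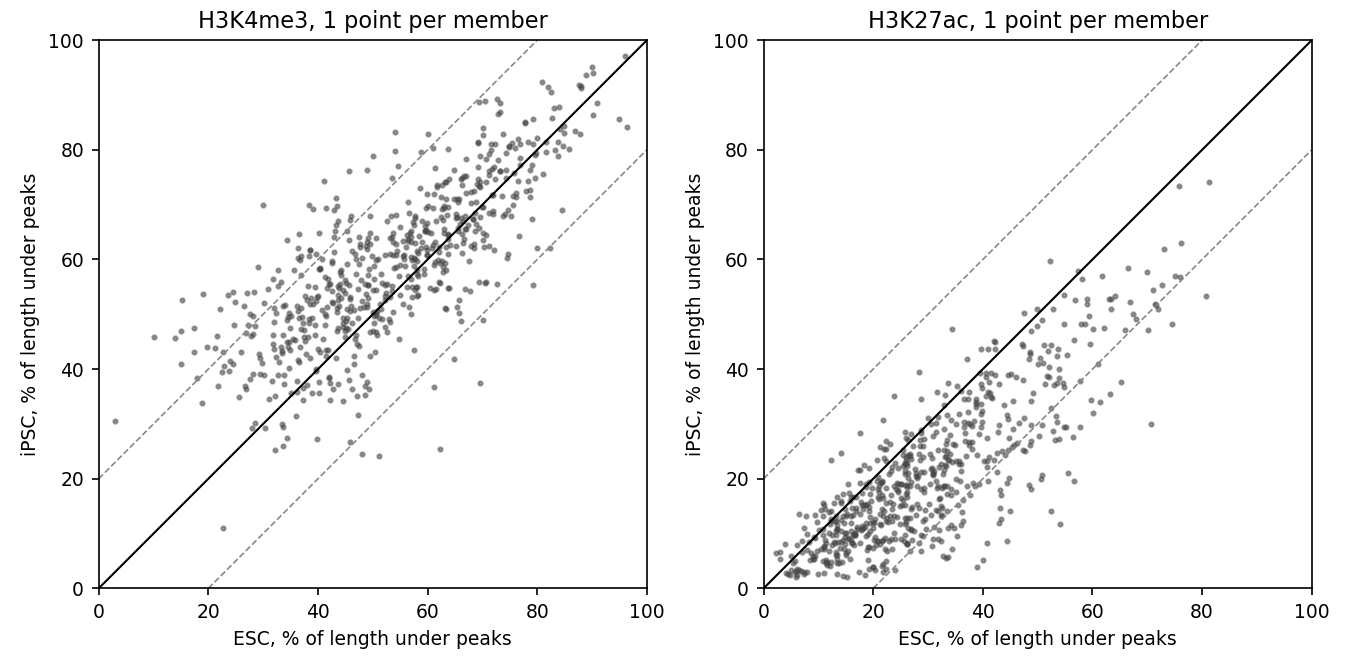
Percent of the length of each member under H3K4me3 peaks (left) and H3K27ac peaks (right), iPSC on the vertical and ESC on the horizontal axis. The solid line marks equal coverage and the dashed lines a difference of 20 percentage points: 68 members lie beyond the upper line for H3K4me3, and 72 beyond the lower one for H3K27ac.

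Large differences between the cell types were more frequent in H3K4me3 on the side of iPSC and in H3K27ac on the side of ESC. A difference of at least 20 percentage points was called large. H3K4me3 was that much higher in iPSC in 68 members (10.4%), against 5.73% of all wide domains, and that much higher in ESC in 9 (1.38%, against 1.98%). H3K27ac was that much higher in iPSC in 0 members, against 0.0408% of all wide domains, and that much higher in ESC in 72 (11.03%, against 4.16%). All wide domains include 1637 with a repressive mark and 43 without that lacked H3K27ac in at least 1 cell type. Narrow active domains had larger shares, 18.9% for H3K4me3 higher in iPSC and 16.8% for H3K27ac higher in ESC. With the ESC list of H3K27ac cut to equal length, 33 members had at least 20 points more in ESC and 6 in iPSC. The matching shares of all wide domains are not given, so these 2 counts cannot be set against a background.

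Of the 68 members with the H3K4me3 surplus in iPSC, 65 spanned 5 kb or more by iPSC peaks alone and 33 by ESC peaks alone. The largest surplus was at 90491057 to 90496770 of chromosome 7, where H3K4me3 covered 69.9% in iPSC and 29.9% in ESC. Its H3K27ac was similar in both, 21.6% and 17.6%. The next, at 37447585 to 37454294 of chromosome 1, spanned 6.71 kb by iPSC peaks and 1.58 kb by ESC peaks, with 52.7% and 15.2% of its length under H3K4me3. H3K27ac there covered 28.3% in iPSC and 17.6% in ESC. The domains at 10394868 to 10399879 of chromosome 8 and at 52485861 to 52491256 of chromosome 14 likewise spanned 5.01 and 5.396 kb in iPSC and 1.79 and 1.88 kb in ESC. The domain at 85976403 to 85982237 of chromosome 12 had a similar span in both, 5.83 kb in iPSC and 5.58 kb in ESC. It had H3K4me3 over 74.2% and 41.1% and H3K27ac over 39.5% and 28.4%. In these 68 members H3K27ac covered a median of 19.06% in iPSC and 22.6% in ESC. H3K27ac was higher in iPSC in 23 of the 68, against 78 of all 653 members (11.9%).

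The 9 members with the opposite H3K4me3 difference had more H3K27ac in ESC as well, a direction shared by 574 of all 653 members (87.9%). They had H3K4me3 over a median of 37.4% in iPSC and 64.9% in ESC, and H3K27ac over 14.01% and 47.7%. The largest was at 2883496 to 2889623 of chromosome 15, with H3K4me3 over 25.5% in iPSC and 62.3% in ESC and H3K27ac over 34.0% and 61.4%. The next 2 were at 102946787 to 102952615 of chromosome 13, with H3K4me3 over 37.4% and 69.6%, and at 48225922 to 48231084 of chromosome 11, with 24.2% and 51.2%. The last of these had H3K27ac over 56.9% in iPSC and 75.1% in ESC, so it was heavily acetylated in both in spite of its short H3K4me3 span of 3.21 kb in iPSC.

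The members with the large H3K27ac surplus in ESC had similar median H3K4me3 coverage in both cell types, while members as a whole had more in iPSC. Among the 72 members with at least 20 points more H3K27ac in ESC, H3K4me3 covered a median of 55.8% in iPSC and 58.02% in ESC. The median H3K4me3 difference, iPSC minus ESC, was -0.780 points in the 72 and 5.04 in all members. H3K4me3 covered more in ESC in 37 of the 72, against 197 of all 653 members (30.2%). Over all members, the H3K4me3 and H3K27ac differences were weakly correlated (Pearson's r 0.350, Spearman's rho 0.297). The largest H3K27ac difference was at 42236269 to 42241497 of chromosome 13, with H3K27ac over 11.8% in iPSC and 54.1% in ESC. There H3K4me3 was also lower in iPSC, 24.6% against 48.04%. At 99147954 to 99153419 of chromosome 15 H3K27ac covered 29.9% in iPSC and 70.6% in ESC while H3K4me3 covered 55.8% and 62.2%. At 24451902 to 24457198 of chromosome 13 the values were 19.6% and 56.5% for H3K27ac and 67.0% and 66.5% for H3K4me3. In the other direction, the largest H3K27ac surplus in iPSC was 13.0 points, at 55366921 to 55371976 of chromosome 8, with 47.4% in iPSC and 34.4% in ESC. H3K4me3 there covered 74.9% in iPSC and 53.5% in ESC.

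Wide in the joined lists did not mean wide in each cell type. The span of a cell type ran from its first to its last H3K4me3 peak in the domain, whatever the gaps between them. Gaps reached 3173 bp in iPSC and 3767 bp in ESC, so a span of 5 kb was not always joined within 1 kb. By this span, 428 of the 653 members had 5 kb or more in both (65.5%, Wilson interval 61.8 to 69.1), 137 in iPSC alone, 69 in ESC alone and 19 in neither. Of the wide acetylated domains with a repressive mark, 76.0% (74.3 to 77.6) did so in both. Members were also shorter, and the part of their width in this was not tested. The median span was 5674 bp in iPSC and 5529 bp in ESC. In 1 member the ESC span was under 1 kb, and in iPSC in 0.

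The same base pairs were marked in both cell types to a large extent. Of the H3K4me3 base pairs of members, 78.8% of those of iPSC were also under H3K4me3 in ESC, and 87.0% of those of ESC were also marked in iPSC. For H3K27ac the shares were 86.1% of iPSC base pairs and 60.2% of ESC base pairs. In 8 of 653 members no H3K27ac base pair was in common although both lists had a peak there. The same held for 83 of the 2571 domains with a repressive mark and 285 of the 7746 narrow active domains. The domains with a repressive mark had 85.6% and 89.1% for H3K4me3 and 85.6% and 61.7% for H3K27ac. The summit of the strongest H3K4me3 peak lay within 150 bp, about the length of DNA on a nucleosome, in iPSC and ESC in 321 of 653 members (49.2%, Wilson interval 45.3 to 53.0), against 42.2% (40.3 to 44.1) in the domains with a repressive mark. For H3K27ac it did so in 322 members (49.3%, 45.5 to 53.1), against 55.2% (53.3 to 57.1). The lower quartile of these distances in members was 12 bp for H3K4me3 and 13 bp for H3K27ac, while the upper quartile was 1480 and 1560 bp. The summits of a member thus ranged from nearly coincident to more than 1 kb apart.

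H3K27ac extended along the longer side of the domain, in members and also in the domains with a repressive mark. The strongest H3K4me3 summit was off centre, with a median of 1673 bp to the nearer edge and 4458 bp to the further one in iPSC, and 1736 and 4447 bp in ESC. With every member turned so that its longer arm pointed one way, mean H3K27ac coverage was 45.9% in the 200 bp next to the summit in iPSC and 58.4% in ESC. Between 3.2 and 3.4 kb along the longer arm it was 18.97% in iPSC and 27.8% in ESC, about the level at 1.2 to 1.4 kb, 19.6% and 28.5%. In the next 200 bp, from 3.4 to 3.6 kb, it was 14.9% in iPSC and 26.6% in ESC. In the domains with a repressive mark coverage was 11.9% at 3.2 kb and 16.1% at 1.2 kb in iPSC, and 15.8% and 21.6% in ESC. It was 12.4% in iPSC and 16.5% in ESC at 1.8 kb, so there too it changed little from 1.8 to 3.2 kb. H3K4me3 of members declined over the same stretch, with 47.3% at 3.2 kb and 56.4% at 1.2 kb in iPSC, and 41.0% and 51.4% in ESC. The strongest H3K4me3 and H3K27ac summits of a member lay within 150 bp of each other in 32.3% of members in iPSC (Wilson interval 28.8 to 36.0) and 32.01% in ESC (28.5 to 35.7). The domains with a repressive mark had 22.8% (21.2 to 24.4) and 28.5% (26.8 to 30.3). In the narrow active domains the shares were higher, 38.5% (37.4 to 39.6) and 41.9% (40.8 to 43.0), so members lay between these classes. Members were shorter than the domains with a repressive mark and longer than the narrow active ones. The part of arm length in these values was not tested.

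**Figure D4:**
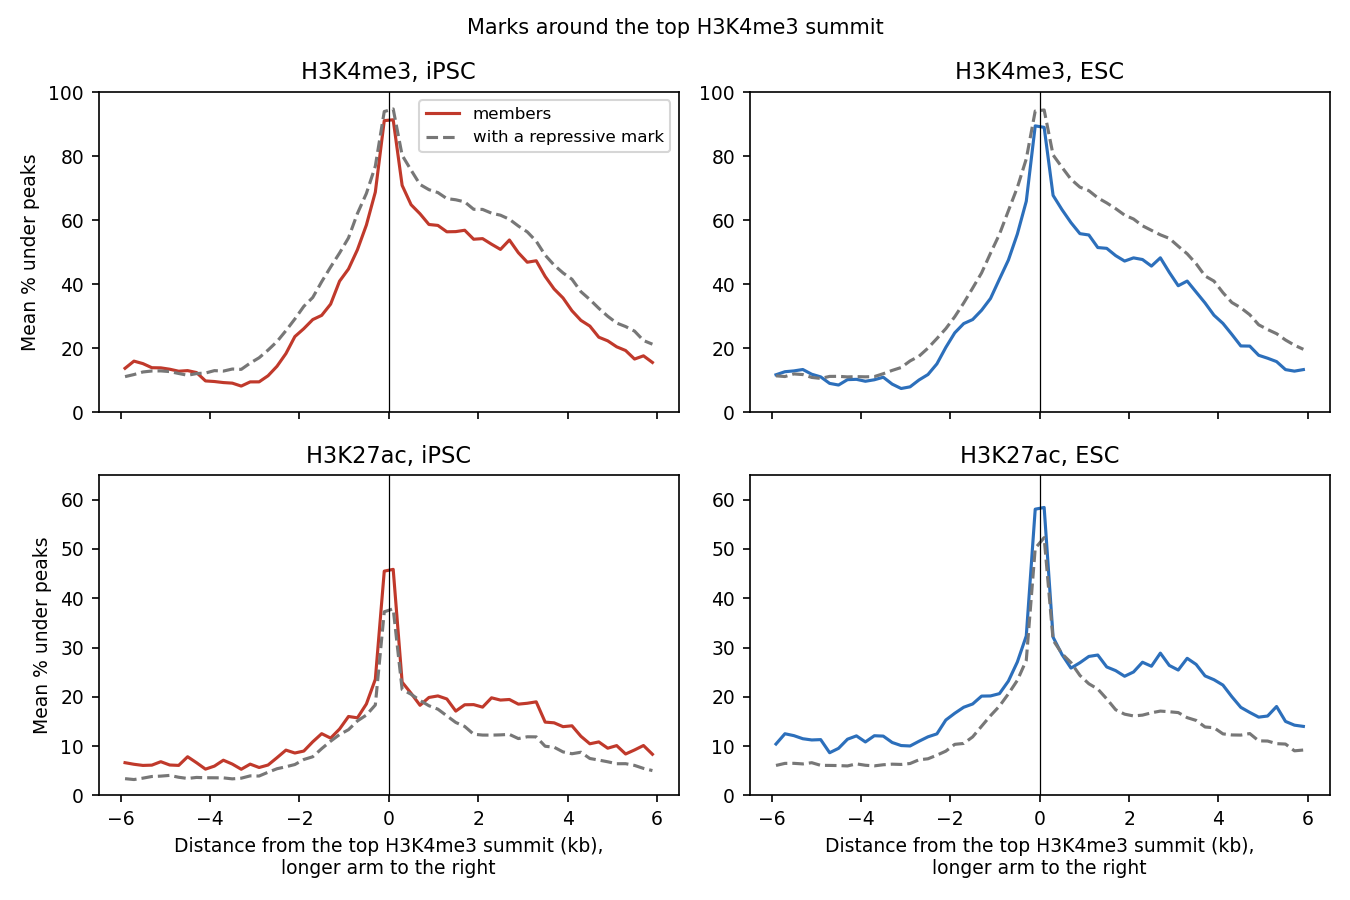
Mean percent of sequence under H3K4me3 peaks (top) and H3K27ac peaks (bottom) in 200 bp bins, by distance in kb from the strongest H3K4me3 summit of each domain in iPSC (left) and ESC (right), with the longer arm to the right. Solid lines are the members and dashed lines the wide acetylated domains with a repressive mark, which have more H3K4me3 (53.4% in iPSC) and less H3K27ac (11.9%) at 3.2 kb.

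The flanks of members held more H3K27ac than those of the other classes, and little repressive coverage next to the edges, as those of the narrow active domains did. Within 5 kb of the edges, H3K27ac covered 5.81% of the flanks of members in iPSC and 10.4% in ESC, against 3.10% and 5.83% in the domains with a repressive mark and 4.23% and 7.74% in the narrow active domains. At 20 to 100 kb the members had 3.98% in iPSC and 7.35% in ESC, against 3.29% and 6.10% in the domains with a repressive mark. H3K27me3 covered 1.19% of the nearest 5 kb in iPSC and 1.06% in ESC, and 3.11% and 2.72% at 20 to 100 kb. H3K9me3 covered 2.04% of the nearest 5 kb in iPSC and 3.00% in ESC, and 4.54% and 6.53% at 20 to 100 kb. Over all autosomes H3K27me3 covered 3.47% in iPSC and 2.08% in ESC, H3K9me3 6.96% and 8.46%, and H3K27ac 2.10% and 3.95%. Close to members, repressive coverage was thus below the autosomal level and H3K27ac above it. In the domains with a repressive mark the nearest 5 kb had 4.35% and 6.01% H3K27me3 and 4.47% and 6.04% H3K9me3. The narrow active domains had 1.35% H3K27me3 in iPSC and 0.871% in ESC, close to the members, and 2.87% and 4.22% H3K9me3. Low H3K4me3 next to an edge follows from the choice, since a peak within 1 kb would have been joined, and so in part does low repressive coverage, since a repressive peak across an edge would have removed the domain.

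Repressive peaks were absent from members but not far from them. The nearest H3K27me3 or H3K9me3 peak of any of the 4 lists lay at a median distance of 5.23 kb (quartiles 2.26 and 10.2 kb), and within 1 kb for 67 of 653 members. The nearest H3K27me3 peak was 13.4 kb away in iPSC and 30.2 kb in ESC, and the nearest H3K9me3 peak 10.7 kb and 7.89 kb. The lists differed in length, with 158859 H3K27me3 peaks in iPSC and 80633 in ESC, and 251833 H3K9me3 peaks in iPSC and 349276 in ESC. Narrow active domains had a median of 4.09 kb to the nearest repressive peak, which lay within 1 kb for 1122 of 7746. Repressive peaks were thus somewhat nearer to the narrow active domains than to members.

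**Figure D5:**
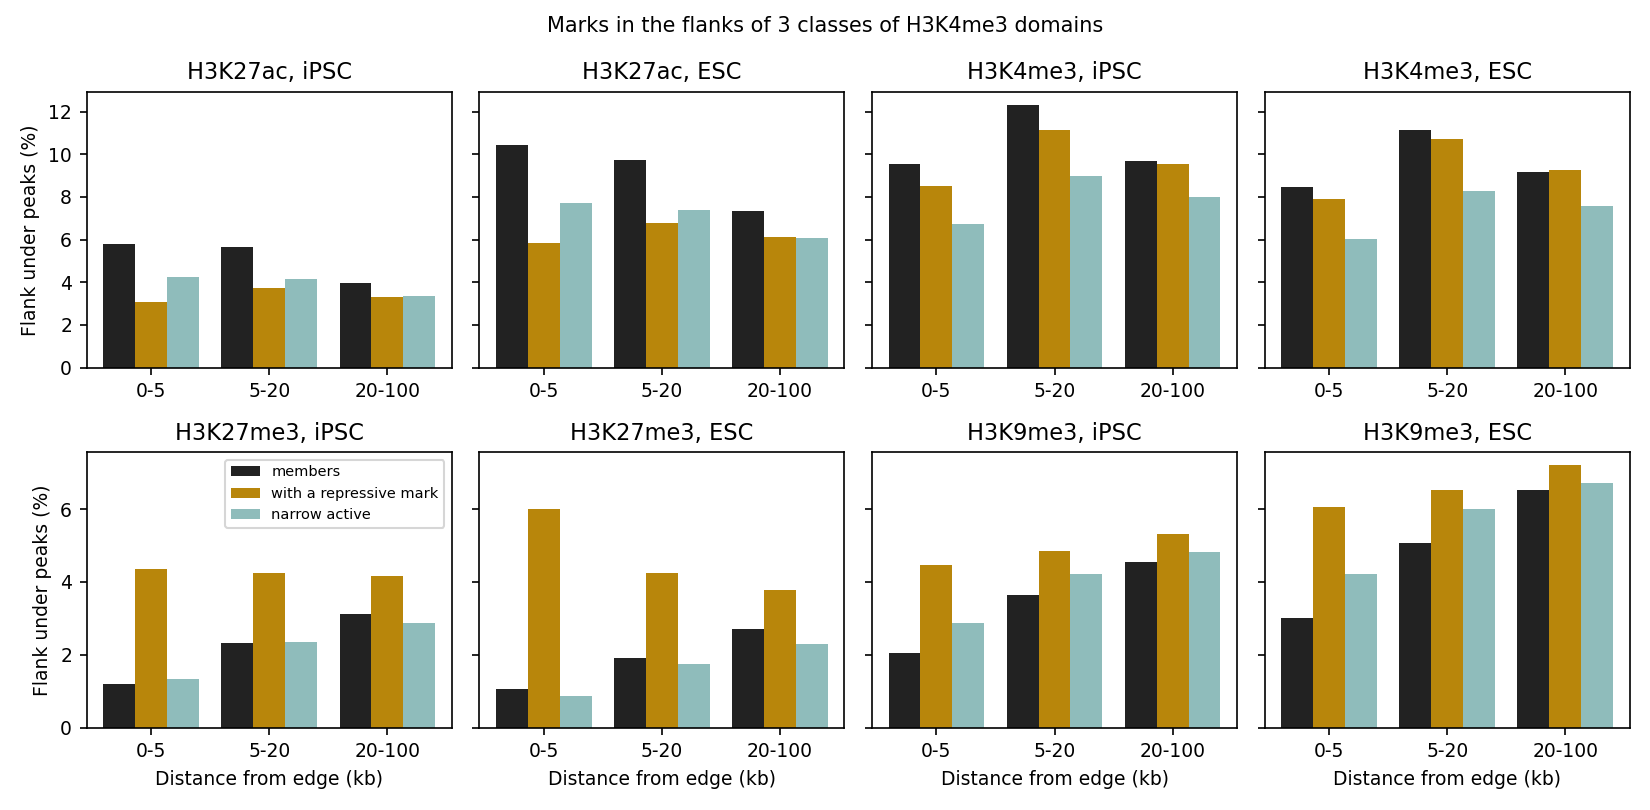
Percent of the flanking sequence under peaks of each mark at 0 to 5, 5 to 20 and 20 to 100 kb from the edges, in iPSC and ESC, for members (black), wide acetylated domains with a repressive mark (ochre) and narrow active domains (pale teal). Members have the most H3K27ac at 0 to 5 kb in both cell types, 5.81% in iPSC and 10.4% in ESC.

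Members lay on all 20 autosomes and often close to other H3K4me3 domains. The median distance to the next domain of 2 kb or more was 9.13 kb, against 11.2 kb for the domains with a repressive mark and 16.6 kb for the narrow active ones. Chromosome 1 held the most members, 81, and also 535 wide domains. Chromosome 16 had 0.534 members per Mb, against a mean of 0.264 ± 0.106 (SD over 20 autosomes), and 3.87 wide domains per Mb. Members made up 21.1% of the wide acetylated domains of chromosome 1 and 22.99% of those of chromosome 16, both near the mean share. That mean share was 20.1% ± 3.91 (SD over 20 autosomes), with 30.5% on chromosome 15 (39 of 128, Wilson interval 23.2 to 38.9) and 14.3% on chromosome 19 (20 of 140, 9.44 to 21.04). Neighbouring members were a median of 1.78 Mb apart, but 143 of them stood in 65 runs with gaps under 100 kb. The longest run, picked out after its values were seen, held 5 members between 52696034 and 52879606 of chromosome 1. They were 5.41, 7.42, 8.76, 12.3 and 7.38 kb wide, with H3K27ac over 18.8%, 10.9%, 26.8%, 11.1% and 22.2% in iPSC and 37.1%, 18.0%, 37.4%, 19.9% and 32.02% in ESC. The closest pair, also picked out afterwards, was separated by 1.275 kb on chromosome 7, at 48995851 to 49001591 and 49002867 to 49008360.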

How the data were processed

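ChIP-seq peak lists of H3K4me3, H3K27ac, H3K27me3 and H3K9me3 in iPSC and ESC were analysed. The tools named in the submitters' processing notes are deepTools, MACS2, Picard and SAMtools 1.10. For the aligner, genome build, calling thresholds and the combining of libraries, nothing is given in the sources used here. The deposited lists give for each peak a fold enrichment over background (a ratio) and the −log10 of its q, and the narrow lists the summit. Depth is unknown. A gene table of the assembly Panubis1.0 had its furthest gene end over 5 Mb from the furthest peak end on 12 of 20 autosomes, so no genes or sequences were used.

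Peaks were joined, intersected and summed with Python 3.11.15, numpy 2.4.6 and pandas 2.3.3. The joining of peaks, the coverage and the counting of overlapping peaks were tested on simulated data. The steps for base pairs in common, summits and spans were not. Positions count from 1. Coverage is the percent of a domain's length under peaks of a list. Medians have 95% order-statistic intervals and shares 95% Wilson intervals, which cover counting error only; neighbouring regions are not independent. No p-value was computed. Regions were named by rank: the 10 widest, the 5 highest in the lower H3K27ac coverage, the 5 at each end of the iPSC minus ESC difference in each mark, and the 3 on each side of the width limit. The members and these rules were chosen with earlier results of these data known. A planned naming of genes was not run.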

Additional observations from a re-analysis of the deposited data

How the results depend on the processing

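The number of members depended most on how peaks were joined. It was 178 with joining within 0.5 kb, 2219 within 2 kb, 1452 at a width limit of 4 kb, 306 at 6 kb and 1114 where only repressive peaks with a −log10 q of at least 2 counted. Members as a percent of wide domains, 13.3%, were 7.30%, 18.8%, 17.2%, 10.1% and 22.7% in the same order, 18.2% with stricter peaks of all marks (−log10 q of at least 5 for H3K4me3 and H3K27ac and 2 for the others), 10.2% with H3K27ac over at least 10% in each cell type and 11.9% with no repressive peak within 1 kb. The median width of 5905 bp was 5653.5, 6341, 4848.5 and 7008 bp under the joining and width settings. The share with a span of 5 kb or more in each cell type alone, 65.5%, was 74.7% with joining within 0.5 kb. It was 29.5% at 4 kb and 90.5% at 6 kb, where the 5 kb limit on the span was kept. The H3K4me3 difference kept its sign under all 9 alternatives run and was 2.86 points with joining within 0.5 kb. The H3K27ac difference kept its sign under all 9 and was -8.66 points with joining within 0.5 kb, -6.79 within 2 kb and -2.42 with the ESC list cut to the length of the iPSC list, which was added after the data were examined. The ESC H3K27ac surplus of members over the domains with a repressive mark kept its sign under all 8 and was 9.89 points with joining within 0.5 kb, 4.83 within 2 kb, 10.3 at 6 kb, 6.22 with stricter peaks and 4.41 with H3K27ac over at least 10%. The cause of these shifts was not tested. No paired analysis was possible because each cell type and mark has 1 list whose columns carry no replicate numbers, and so no library could be left out.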

Other observations

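The rule was also applied off the autosomes. On the X chromosome 1 domain met it, out of 136 of 5 kb or more and 68 that bore H3K27ac in both cell types. Of these 68, 25 overlapped a repressive peak in iPSC and 67 in ESC. On the autosomes 2193 of 3224 wide acetylated domains (68.0%) overlapped a repressive peak in iPSC and 2167 (67.2%) in ESC. On unplaced scaffolds 6 domains met the rule, out of 74 of 5 kb or more.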
